A study of Bos indicus x Bos taurus with 17 samples.

Results

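A set of 7 genes of red cell formation was followed in the liver of bovine fetuses, with skeletal muscle of the same fetuses as the contrast for blood content. They are the 7 of 21048 genes in the deposited count tables whose listed name is ALAS2, AHSP, GYPB, SLC4A1, EPB42, GATA1 or KLF1, and each symbol matched 1 line. The fetuses were Nelore by Holstein hybrids at about day 105 of gestation, and were labelled healthy. Control-AI fetuses (n = 2, numbered 2 and 4) were conceived by artificial insemination, and ART-Normal fetuses (n = 4, numbered 1 to 4) by assisted reproductive technology, described in the study's methods as in vitro production with a weight similar to controls. The study's list of ART-Normal fetuses holds 1 to 3, and fetus 4 is known from the labels alone, with no weight given. Each fetus gave 1 liver and 1 muscle library, made from poly(A) RNA with a strand-specific protocol and read as pairs of 150 bp. The labels name 1 library per tissue and fetus, so the spread between libraries includes both the fetuses and the technical error.

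In the mammalian fetus, the liver is the main site where red cells form before the bone marrow takes over. Erythroid precursors mature there on macrophages, in nests called erythroblastic islands, and release enucleated cells that still hold mRNA for a short time into the blood. The program is driven by GATA1 and KLF1, while muscle receives red cells through its vessels and is not a site where they form. In bulk tissue, fewer cells of a type and less RNA per cell cannot be told apart.

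GATA1 encodes the zinc finger factor on which erythroid and megakaryocyte differentiation depends, and lies on chromosome X from 86899776 to 86906488 on the plus strand of ARS-UCD1.2. KLF1, the erythroid Krüppel-like factor that activates beta-type globin and many red cell genes, lies on chromosome 7 from 12671237 to 12675539 on the plus strand. ALAS2 encodes the erythroid form of 5-aminolevulinate synthase, the first enzyme of heme synthesis, on chromosome X from 92485200 to 92512457 on the minus strand. AHSP, the chaperone that holds free alpha globin, lies on chromosome 25 from 27537954 to 27544140 on the plus strand. SLC4A1, the anion exchanger known as band 3, lies on chromosome 19 from 44066247 to 44082437 on the minus strand. EPB42 encodes protein 4.2, which ties band 3 to the membrane skeleton, on chromosome 10 from 38405121 to 38424345 on the minus strand. GYPB is listed as a glycophorin, a family of sialic acid-rich surface proteins of the red cell, on chromosome 17 from 14115218 to 14143641 on the minus strand. These are whole gene spans, introns included. None of the 7 spans overlaps another listed gene, and the closest neighbour is C25H16orf58, which lies 26 bp from AHSP on the opposite strand.

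Total counts were 18454088 to 43339598 in the 6 liver libraries and 12433300 to 23578362 in the 6 muscle libraries. Levels are given as CPM, the counts scaled to library size, after TMM scaling over the 12 libraries. They are not divided by transcript length, so they compare libraries for 1 gene and not genes with each other. The tissue labels matched their markers: the 8 muscle markers summed to 19583 to 29507 CPM in muscle, and the 10 hepatocyte markers to 36967 to 358130 CPM in liver. Control-AI 2 stood apart from the other fetuses. In its liver, AHSG took 11.2% of all counts, against 0.716% to 1.32% for the top gene of each other liver, and the hepatocyte markers summed to 358130 CPM against 36967 to 70133. Its muscle library held 392 CPM of hepatocyte markers against 26.1 to 67.5 in the other muscles, and its liver held 42.8 CPM of muscle markers against 7.98 to 10.7. Its libraries also stood apart by strand. For genes that overlap an opposite-strand gene with 10 times their level or more, the log2 ratio to the mean of the other 5 libraries of the tissue was taken, and its median was 0.62 in its liver and 0.93 in its muscle. In the other libraries this median was -0.28 to -0.13, and genes without any opposite-strand partner had -0.45 in the liver and -0.0026 in the muscle of Control-AI 2. These strand ratios are of CPM without TMM scaling. The TMM factor was 0.761 for the liver of Control-AI 2 and 0.963 to 1.04 for the other livers. Whether its library or its counting differed in strand is not given in the sources used here. None of the 7 genes overlaps a gene on the opposite strand. The results below are therefore also given without Control-AI 2 where that changes them.

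All 7 genes were expressed in every liver, and their sum varied little between livers. Summed over the 7 genes, the liver level was 4617 CPM in Control-AI 4 at the lowest and 5337 CPM in ART-Normal 1 at the highest, with 4827 CPM in Control-AI 2. SLC4A1 and ALAS2 make up most of this sum. The liver of Control-AI 2 was inside the range of the other livers for it and outside for the hepatocyte sum. It was below all other livers for the sums of 4 of the 5 other red cell lists. It had 3134 CPM of erythroid transcription genes against 3369 to 3943, and 4610 CPM of heme synthesis genes against 4810 to 5234. For membrane and skeleton genes it had 4856 CPM against 5620 to 6585, and for late maturation genes 3065 CPM against 3229 to 3852.

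Among the transcription factors, GATA1 had 162 and 181 CPM in the livers of Control-AI 2 and 4 and 148, 151, 141 and 170 CPM in those of ART-Normal 1 to 4. Control-AI 4 was the highest and ART-Normal 3 the lowest, and ART-Normal 4 lay between the controls. KLF1 had 249 and 257 CPM in the controls and 248, 244, 299 and 301 CPM in ART-Normal 1 to 4. The livers of ART-Normal 3 and 4 were above both controls for KLF1, while those of ART-Normal 1 and 2 were just below both.

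ALAS2 had 1528 and 1141 CPM in the livers of Control-AI 2 and 4 and 1153, 1034, 1324 and 1353 CPM in ART-Normal 1 to 4. The controls held the first and the fifth place of 6 for this enzyme. AHSP had 478 and 321 CPM in the controls and 597, 500.1, 325 and 501 CPM in ART-Normal 1 to 4. For the globin chaperone, Control-AI 4 and ART-Normal 3 were low and close to each other, and the other livers were all higher.

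SLC4A1 had 1640 and 1665 CPM in the livers of Control-AI 2 and 4 and 1651, 1683, 1754 and 1853 CPM in ART-Normal 1 to 4. EPB42 had 406 and 399 CPM in the controls and 467, 391, 462 and 463 CPM in ART-Normal 1 to 4. Band 3 and its partner protein 4.2 were thus nearly level across the livers, with ART-Normal 2 below the other ART-Normal livers for EPB42. GYPB had 364 and 653 CPM in the controls and 1074, 805, 627 and 468 CPM in ART-Normal 1 to 4. This glycophorin ranged widely in both groups, with Control-AI 2 lowest and ART-Normal 1 highest.

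**Figure D1:**
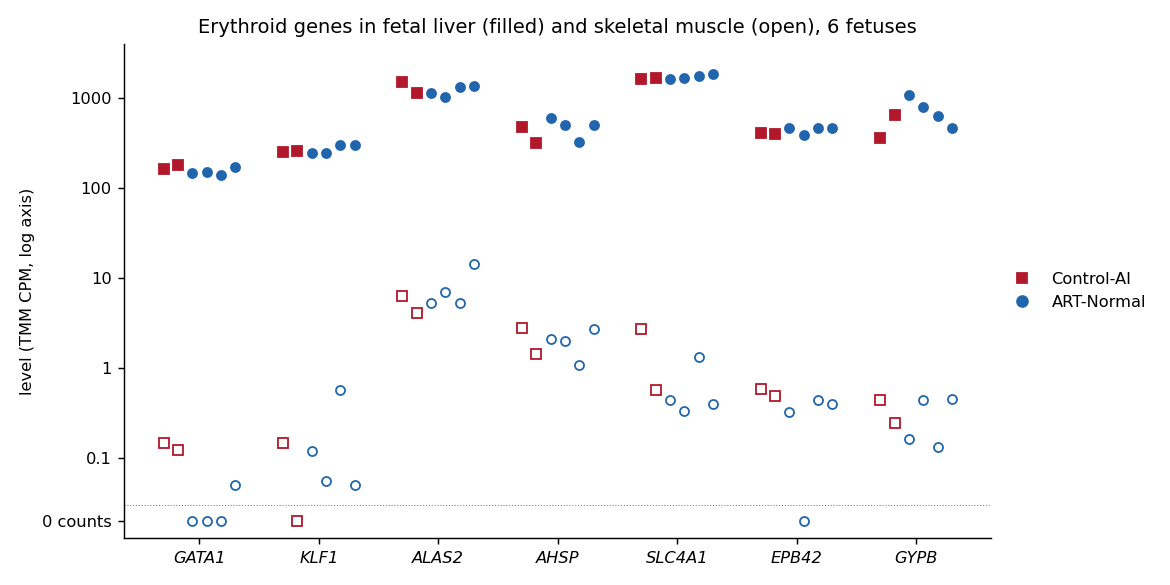
Level of each of the 7 genes in liver (filled) and muscle (open) of 2 Control-AI (squares) and 4 ART-Normal (circles) fetuses, as TMM-scaled CPM on a log axis. Within a gene, fetuses run from left to right as Control-AI 2, Control-AI 4 and ART-Normal 1 to 4, and libraries with 0 counts are drawn under the dotted line. Liver values lie between 141 and 1853 CPM and all muscle values at or under 14.3 CPM.

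The 7 genes differed in how far the 6 livers spread. The highest liver was 1.13 times the lowest for SLC4A1, 1.19 times for EPB42, 1.23 times for KLF1 and 1.28 times for GATA1. It was 1.48 times the lowest for ALAS2, 1.86 times for AHSP and 2.95 times for GYPB. Over the 11304 genes tested in liver, the median of this ratio was 1.47, with quartiles of 1.32 and 1.71. SLC4A1 was among the steadiest genes, since 1.51% of the tested genes had a smaller ratio. GYPB was at the other end, with 95.9% of genes below it, and AHSP had 83.0% below it. Without Control-AI 2, the ratio of GYPB was 2.30 and that of AHSP stayed at 1.86.

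Glycophorins are a family of similar genes, and reads shared between copies could be split or dropped in counting, which makes the level of GYPB uncertain.

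**Figure D2:**
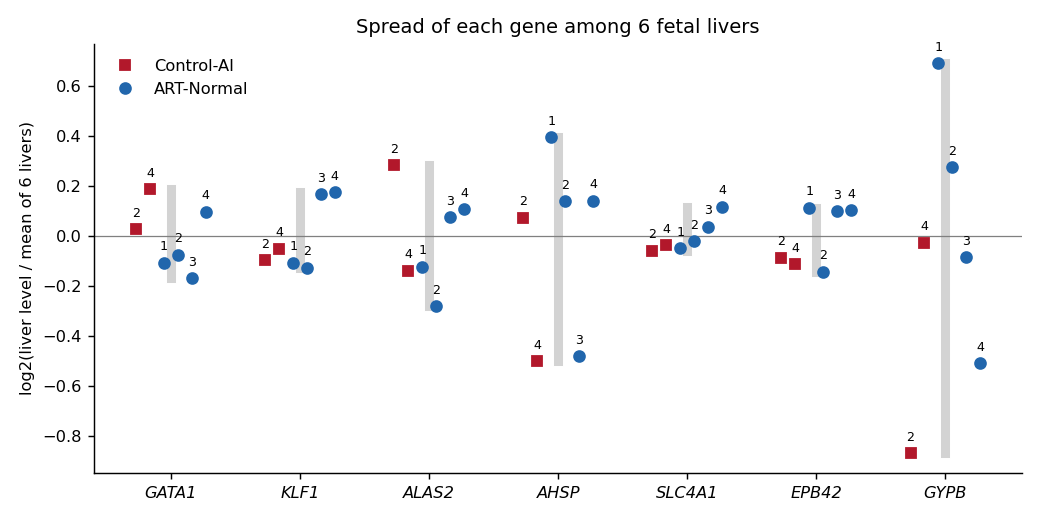
Level of each gene in each liver relative to its own mean over the 6 livers, on a log2 scale, with squares for Control-AI and circles for ART-Normal and the number of the fetus above each point. Grey bars span the lowest to the highest liver. The ratio of highest to lowest is 1.13 for SLC4A1 and 2.95 for GYPB.

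The conception groups were compared in liver with edgeR's quasi-likelihood test over 11304 genes, of which all 7 erythroid genes passed the filter on low counts in both groups. Of the 7, 0 passed the adjusted threshold of 0.05, beside 0% of all genes tested. The test called 0 genes in all, with 948 at an unadjusted p under 0.05, while the Wald test of DESeq2 called 56 and the likelihood ratio test of edgeR called 89. None of the 7 was among either set. No member had all 4 ART-Normal livers above or below both controls, whereas 18.5% of the genes tested did. With 4 against 2 livers, an exact permutation test cannot go below p = 0.0667, so none is given.

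GYPB had the largest estimate, with 744 ± 260 CPM (SD, n = 4) for ART-Normal livers and 509 ± 204 CPM (SD, n = 2) for Control-AI livers. Its log2 fold change had a value of 0.53 and a standard error of 0.33, and the quasi-likelihood test of edgeR gave an adjusted p of 0.611. It fell to 0.19 without Control-AI 2 and was 1.00 without Control-AI 4, so the estimate followed which control was kept. AHSP was estimated at 0.25, with a standard error of 0.25 and an adjusted p of 0.724 by the same edgeR test, and the value became 0.59 when Control-AI 2 was left out and -0.018 when Control-AI 4 was. ALAS2 was estimated at -0.15, with a standard error of 0.20 and an adjusted p of 0.794 by the same edgeR test, and at 0.10 without Control-AI 2. For these 3 genes the difference between the conception groups was smaller than the difference between the controls.

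The other 4 genes had narrower errors. The log2 fold change was -0.18 for GATA1 (standard error 0.13), 0.09 for KLF1 (standard error 0.15), 0.05 for SLC4A1 (standard error 0.17) and 0.13 for EPB42 (standard error 0.15). The quasi-likelihood test of edgeR gave them adjusted p values of 0.633, 0.837, 0.916 and 0.751. Without Control-AI 2 the estimates were -0.24, 0.09, 0.07 and 0.17, and the adjusted p was 0.999 for each of the 7 genes. The group means of SLC4A1 were 1735 ± 89.5 CPM (SD, n = 4) for ART-Normal and 1652 ± 17.9 CPM (SD, n = 2) for Control-AI. A p over the threshold does not show that the groups were equal.

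**Figure D3:**
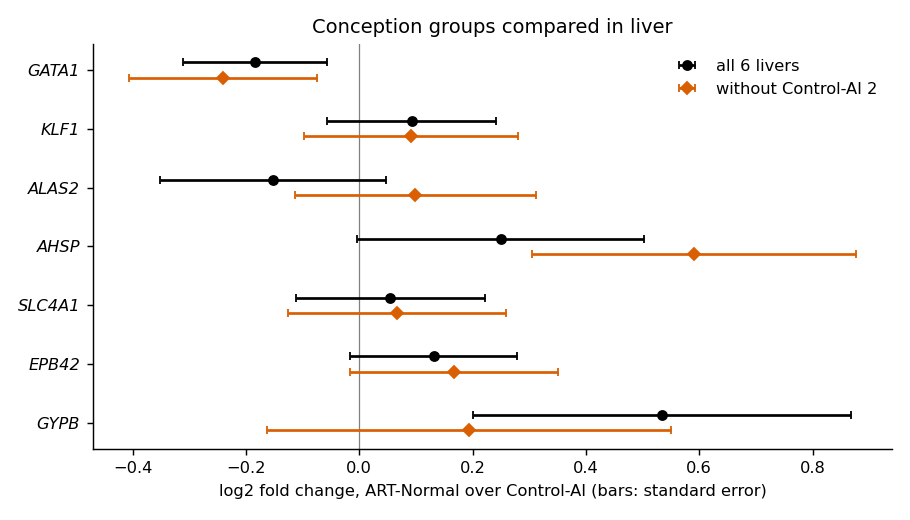
Conception difference in liver for each gene, as the log2 ratio of ART-Normal to Control-AI with its standard error, fitted by edgeR to all 6 livers (black circles) and without Control-AI 2 (orange diamonds). The estimate for ALAS2 changes sign from -0.15 to 0.10, and that for GYPB moves from 0.53 to 0.19.

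The lists of other red cell genes gave the same count. Of the 13 erythroid transcription genes, 13 lines of heme synthesis, 15 membrane and skeleton genes, 9 late maturation genes and 4 receptor and iron uptake genes tested in liver, 0 passed the threshold between conception groups by edgeR's quasi-likelihood test. At an unadjusted p under 0.05, the lists held 2, 1, 1, 2 and 0 genes. Their median log2 fold changes were 0.11, 0.11, 0.26, 0.16 and 0.11, beside 0.01 over all genes tested and 0.09 over the 7 members. All 10 hepatocyte markers were tested, none was called and none was at 0 in any liver, and their sum ranged from 36967 to 63396 CPM across the ART-Normal livers, with 70133 and 358130 CPM for Control-AI 4 and 2. At an unadjusted p under 0.05 by the same edgeR test, the hepatocyte list held 5 of its 10 genes, beside 948 of all 11304 genes tested. Its median log2 fold change was -0.73, and -0.41 without Control-AI 2. The part of hepatocyte content in the values of the 7 genes was not tested.

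Muscle held little of any of the 7 genes, and ALAS2 had the most counts there. ALAS2 had 85 and 101 counts in the muscles of Control-AI 2 and 4 and 130, 126, 121 and 286 counts in ART-Normal 1 to 4. In CPM these were 6.27 and 4.12, and 5.25, 7.01, 5.31 and 14.3, so ART-Normal 4 had the highest ALAS2 of the muscles. AHSP had 38 and 35 counts in the control muscles and 52, 36, 25 and 55 in ART-Normal 1 to 4, which came to 2.80 CPM at most. Both the heme enzyme and the globin chaperone were thus found in all 6 muscles.

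The membrane genes were close to the limit of counting in muscle. SLC4A1 had 37 and 14 counts in the control muscles and 11, 6, 30 and 8 in ART-Normal 1 to 4, with the highest in Control-AI 2, the muscle with the most hepatocyte marker CPM. EPB42 had 8 and 12 counts in the control muscles and 8, 0, 10 and 8 in ART-Normal 1 to 4. GYPB had 6 and 6 counts in the control muscles and 4, 8, 3 and 9 in ART-Normal 1 to 4. For these 3 genes no muscle reached 3 CPM.

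The transcription factors were nearly absent from the muscle counts. GATA1 had 2 and 3 counts in the control muscles and 0, 0, 0 and 1 in ART-Normal 1 to 4. KLF1 had 2 and 0 counts in the control muscles and 3, 1, 13 and 1 in ART-Normal 1 to 4, so that ART-Normal 3 held 13 of the 20 KLF1 counts over all muscles. A count of 0 allows up to 3 counts in a library, and at this depth it does not show that the gene is silent.

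Between the conception groups in muscle, ALAS2 alone passed the filter of 5 CPM in all libraries of a group. The log2 ratio of ART-Normal to Control-AI for this gene had a value of 0.61, a standard error of 0.42 and, in the quasi-likelihood test of edgeR, an adjusted p of 0.718, and it was 0.17 without ART-Normal 4 and 0.93 without Control-AI 2. In the same test 1 of 11695 genes was called, or 0.00855%. The other 6 genes were not tested in muscle between conception groups. The interaction of tissue and conception, which compares the group difference in liver with that in muscle, called 0 of 12923 genes and so 0% of them, with 717 at an unadjusted p under 0.05. DESeq2 called 37 genes for this term and the likelihood ratio test 98, with none of the 7 among them. Among the 7, GATA1 had an interaction estimate with a log2 value of 2.84, a standard error of 0.83 and an adjusted p of 0.763 by the same edgeR test, and it rests on the 6 muscle counts given above. That of KLF1 was -1.77 with a standard error of 1.25, and -5.34 with a standard error of 2.55 without Control-AI 2, on the 20 muscle counts given above.

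All 7 genes were higher in liver than in muscle, by edgeR's quasi-likelihood test over 12449 genes and 12 libraries. This fit took the 12 libraries as independent and did not model the pairing of the tissues by fetus. The same test called 40.4% of all genes higher in liver. The 7 genes passed its filter through their liver level, so the count of 7 is fixed by the filter in part. Sizes such as theirs were not particular to the 7 genes. The 10 hepatocyte markers, 9 of which passed through liver alone, had a median log2 fold change of 10.355, beside 10.65 for the 7. How far the sizes reflect traces of liver RNA in the muscle libraries was not tested. The log2 fold change of liver over muscle was 11.53 for GATA1 (standard error 0.28), 10.65 for KLF1 (standard error 0.35), 7.49 for ALAS2 (standard error 0.32) and 7.84 for AHSP (standard error 0.27). It was 10.89 for SLC4A1 (standard error 0.48), 10.17 for EPB42 (standard error 0.27) and 11.12 for GYPB (standard error 0.38). The adjusted p values of the 7 genes in this edgeR test lay between 6.31e-14 for GATA1 and 1.98e-11 for SLC4A1. KLF1 rose to 11.76 without ART-Normal 3, whose muscle held most of its counts, and the other 6 genes moved by less than 1.5 times when any 1 fetus was left out.

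As linear folds over the summed counts, ALAS2 was 177 times as high in liver as in muscle (95% counting interval 165 to 189) and AHSP 235 times (207 to 267). EPB42 was 1151 times as high (862 to 1572), KLF1 1645 times (1065 to 2693) and SLC4A1 1999 times (1653 to 2442). GYPB was 2367 times as high (1710 to 3380), and GATA1 3251 times (1493 to 8859) on 6 muscle counts. The intervals are exact binomial intervals of the liver share of the summed counts, turned into folds. They cover counting error only and leave out the spread between fetuses, since the counts of the 6 fetuses were pooled. Reads were taken as independent, and without molecular identifiers the counting error itself may be wider. ALAS2 and AHSP thus formed a lower group, with intervals apart from those of the other 5 genes.

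The split of ALAS2 and AHSP from the other 5 genes held within fetuses. For ALAS2 the ratio of liver to muscle CPM was 94.5 to 277 over the 6 fetuses with a median of 232, and for AHSP it was 170 to 297 with a median of 237. For the other 5 genes, with counts under 3 in muscle set to 3 and the ratio then a lower bound, the lowest ratio of any fetus was 525, for KLF1 in ART-Normal 3. No fetus had an ALAS2 or AHSP ratio as high as the lowest ratio of the other 5 genes. SLC4A1 spanned 601 to 5038, with its lowest ratio in Control-AI 2 and 1333 the lowest without that fetus. GYPB spanned 823 to 6650.

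**Figure D4:**
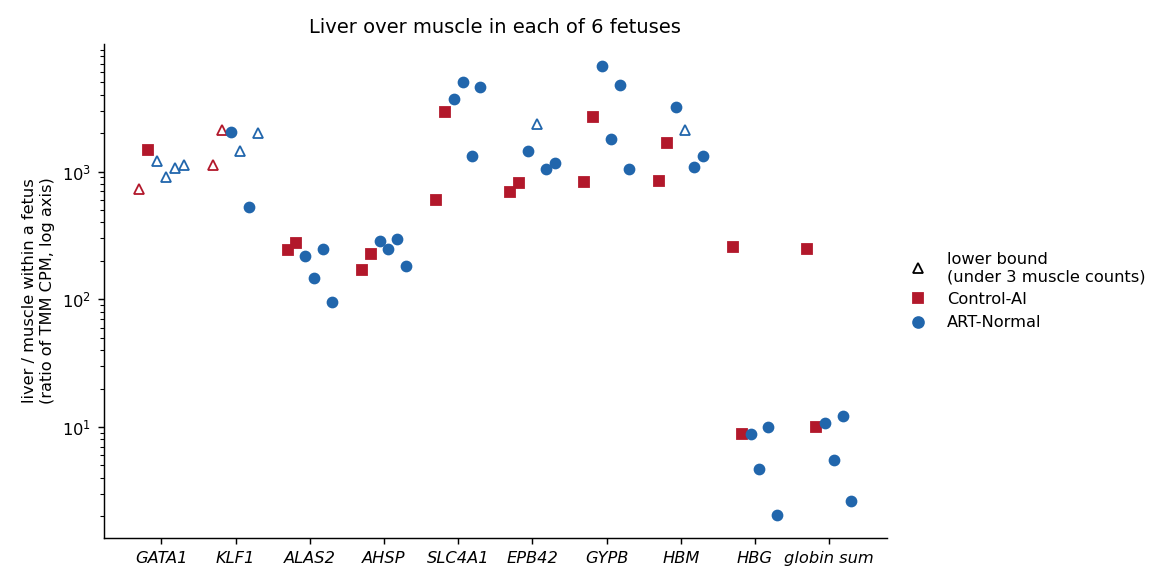
Ratio of liver to muscle level within each fetus, on a log axis, for the 7 genes, for the globin genes HBM and HBG and for the sum of globin genes, with squares for Control-AI and circles for ART-Normal. Open triangles are lower bounds, where muscle had under 3 counts. ALAS2 and AHSP lie between 94.5 and 297, the other 5 genes at 525 or above, and HBG between 2.03 and 10.1 except in Control-AI 2 at 255.

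Globin mRNA was used as the measure of blood content, since red cells released to the blood carry it into every tissue. In liver, where red cells form, it can also come from cells not yet released, so it does not measure blood alone. Liver values per globin count are thus not corrected for blood, and the part of each source was not tested. Summed globin was 20549 and 3118 CPM in the livers of Control-AI 2 and 4 and 2443, 1986, 2417 and 1693 CPM in those of ART-Normal 1 to 4. In muscle it was 82.8 and 311 CPM in the controls and 229, 363, 198 and 641 CPM in ART-Normal 1 to 4. Control-AI 2 thus had the highest globin of the livers and the lowest of the muscles. ART-Normal 4, the muscle with the highest ALAS2 and GYPB by CPM, also had the highest globin. The other genes did not follow globin in this way. AHSP, SLC4A1, EPB42 and GATA1 were highest in the muscle of Control-AI 2, at 2.80, 2.73, 0.59 and 0.1475 CPM. For EPB42 and GATA1 this rests on 8 and 2 counts. KLF1 was highest in ART-Normal 3. HBG, listed as a gamma-type globin, supplied 656 to 978 of each 1000 globin counts in liver and 855 to 950.1 of each 1000 in muscle. Globin genes include near-identical copies, for which the authors' counting could split or drop reads, so the sum is uncertain.

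Against summed globin, the liver excess of the 7 genes was smaller than by TMM scaling, was missing for ALAS2 and AHSP in Control-AI 2, and did not hold with HBM as the scale, as given below. Liver globin was 2.64 to 12.2 times muscle globin in 5 fetuses, and 248 times in Control-AI 2. In those 5 fetuses, ALAS2 had 366 to 799 counts per 1000 globin counts in liver and 13.2 to 26.8 in muscle, and AHSP had 103 to 296 in liver and 4.30 to 9.18 in muscle. SLC4A1 had 534 to 1094 counts per 1000 globin counts in liver and 0.625 to 6.64 in muscle. Liver and muscle values of these 3 genes did not overlap among those fetuses. In Control-AI 2, ALAS2 had 74.4 counts per 1000 globin counts in liver and 75.7 in muscle, and AHSP 23.2 and 33.8, so the excess was missing there for both.

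Per globin count, GYPB, SLC4A1, EPB42, GATA1 and KLF1 were higher in liver than in muscle in 6 of 6 fetuses, and ALAS2 and AHSP in 5 of 6. Over all genes tested, 2.09% were higher in liver per globin count in all 6 fetuses. An exact two-sided sign-flip permutation test over the 6 fetuses gave p = 0.0312 for each of the first 5 genes, which is the smallest p it can give, and p = 0.0625 for ALAS2 and for AHSP, over 7 tests without adjustment. The 7 genes passed the filter through their liver level, so the direction of these counts and tests is set in part. The p-values are therefore no separate support for that direction. The tests also used muscle counts under 3 set to 3, which applied to EPB42, GATA1 and KLF1. The 2.09% also covers genes that passed it through muscle. The mean log2 ratio of liver to muscle per globin count was 3.90 ± 1.95 (SD, n = 6) for ALAS2 and 4.15 ± 2.38 for AHSP. It was 7.44 ± 2.83 for GYPB, 7.55 ± 3.37 for SLC4A1 and, with 1 muscle count of 0 set to 3, 6.47 ± 2.68 for EPB42. For GATA1 and KLF1 muscle was under 3 counts in 5 and 4 of the 6 fetuses, so the means with those set to 3, 6.36 and 6.76, are lower bounds.

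The 7 genes also passed the filter of the globin-scaled fit through liver, so its count of them is fixed in part. With summed globin in place of TMM, the edgeR fit called all 7 genes higher in liver, beside 4.26% of all genes. Its log2 fold changes were 3.96 for ALAS2, 4.13 for AHSP, 7.76 for GYPB, 6.62 for SLC4A1, 6.56 for EPB42, 8.35 for GATA1 and 7.12 for KLF1, with a median over all genes of -3.66. Without Control-AI 2 they were 4.69, 5.15, 8.60, 8.44, 7.48, 9.32 and 7.74, with a median over all genes of -2.91. Each library has 1 globin sum that all genes share, so the p-values of this fit take that error as independent between genes and are too small, and they are not printed.

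HBM, an alpha-like globin gene, behaved unlike HBG. It had 376 and 478 CPM in the livers of Control-AI 2 and 4 and 391, 351, 475 and 462 CPM in ART-Normal 1 to 4, while all 6 muscles together held 34 counts. Its liver level over summed counts was 1518 times that of muscle (95% counting interval 1086 to 2192), against 12.2 times for HBG (12.1 to 12.3). With HBM alone as the scale, an alternative added after the data had been seen, the log2 fold change of liver over muscle was -3.77 for ALAS2 and -3.42 for AHSP, and both passed the test in that direction. EPB42 was at -0.43, GYPB at 0.07, SLC4A1 at 0.23, GATA1 at 1.09 and KLF1 at 0.15, and none of these 5 passed. The sign of ALAS2 and AHSP per globin therefore depends on which globin gene is the scale. This scale rests on 34 muscle counts.

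The wider red cell program was higher in liver, with smaller median folds in the lists than in the 7 genes. A gene that passed the filter through liver alone had its direction set in part, which applied to 6 of the 13 transcription genes, 0 of the 13 heme synthesis lines, 8 of the 15 membrane genes, 4 of the 9 late maturation genes and 2 of the 4 receptor genes tested. All 13 tested erythroid transcription genes were called higher in liver by edgeR's quasi-likelihood test, with a median log2 fold change of 4.13. Among them, GFI1B, a repressor needed for erythroid and megakaryocyte cells, was at 10.35, HEMGN, the nuclear protein hemogen, at 10.23, and NFE2, a globin locus activator, at 9.18. All 13 heme synthesis lines, which cover 12 genes because SLC25A37 is listed on 2 lines, were higher with a median of 3.72. CPOX, an enzyme late in the heme pathway, was at 5.10 and the mitochondrial iron importer SLC25A37 at 4.55 on its higher line. The median over all genes was 0.01, and that of the 7 members 10.65.

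Among 15 tested genes of the membrane and skeleton, 13 were higher in liver, 1 was lower and 1 was not called, with a median of 5.72. The blood group protein KEL was at 11.47, the adhesion protein ICAM4 at 11.10 and the Rh-associated glycoprotein RHAG at 10.81. TMOD1, a tropomodulin that caps actin filaments in red cells and muscle alike, was lower in liver at -0.33, and the water channel AQP1 was at 0.13, for which the edgeR test gave an adjusted p of 0.334. Without Control-AI 2, 14 of the 15 were higher and 1 lower. All 9 tested genes of late maturation were higher, with a median of 4.51, led by the ubiquitin ligases TRIM10 at 10.19 and TRIM58 at 9.37, and with BPGM, the enzyme that makes 2,3-bisphosphoglycerate, at 5.78. Of the 4 receptor and iron uptake genes, EPOR, the erythropoietin receptor, was at 6.18, the endosomal iron reductase STEAP3 at 5.43 and the transferrin receptor TFRC at 4.70, while KIT, the stem cell factor receptor, was lower in liver at -0.74.

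Per globin count, genes of these lists were called in both directions, while the 7 genes were all called higher in liver. Over all 12449 genes tested, this fit called 530 higher and 11151 lower in liver, by p-values that are too small, as given above. Of the erythroid transcription genes, 6 were called higher and 3 lower in liver, of the heme synthesis lines 3 and 2, of the membrane genes 7 and 5, of the late maturation genes 4 and 1, and of the receptor genes 2 and 1. Without Control-AI 2 the pairs were 8 and 1, 8 and 1, 8 and 5, 6 and 1, and 3 and 1. The median log2 fold changes per globin count were 0.54, 0.07, 1.32, 0.92 and 1.39, beside 6.62 for the 7 members. Many genes of these lists, such as those of heme synthesis, are used in other cells and are not markers of red cells alone. The 7 genes were not alone in being higher, since all 10 hepatocyte markers were too, with a median of 5.67. Of 10 megakaryocyte and platelet markers, 8 were higher and 1 lower, and of 5 tested neutrophil and lymphocyte markers, 4 and 0. Of 10 macrophage markers, 1 was higher and 6 lower, and all 8 skeletal muscle markers were lower.

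**Figure D5:**
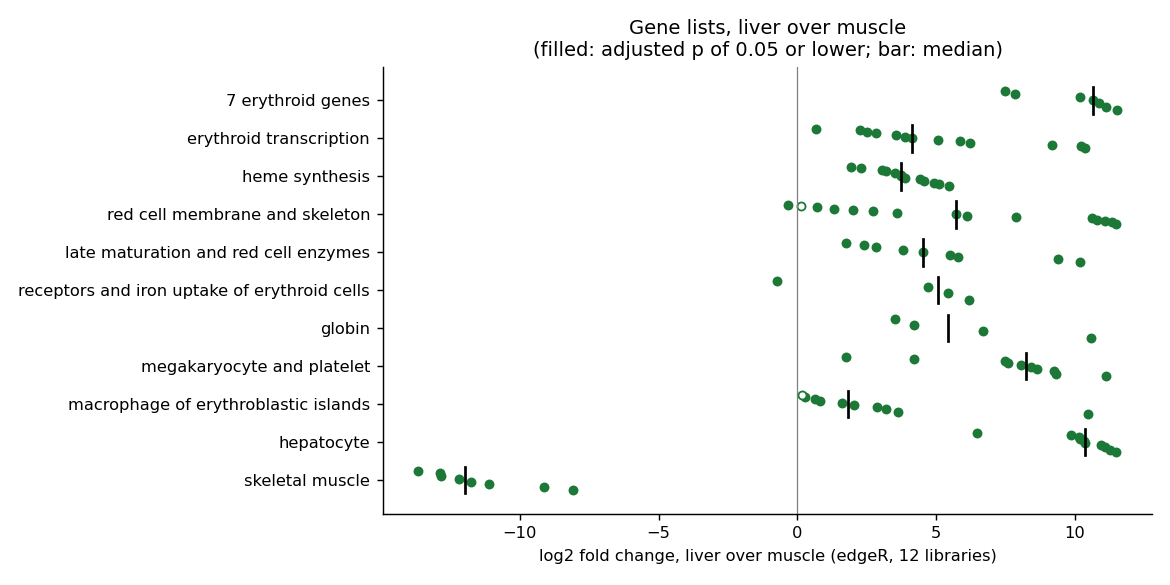
Log2 fold change of liver over muscle for the tested genes of each list, from edgeR's quasi-likelihood test with 12 libraries. Filled points have an adjusted p of 0.05 or lower, open points do not, and bars are list medians. The 7 erythroid genes lie between 7.49 and 11.53, while the medians of the 5 other erythroid lists lie between 3.72 and 5.72.

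Cells other than red cell precursors also carry some of these genes, and their markers moved with the tissue. GATA1 is used by megakaryocytes and mast cells as well. All 10 tested megakaryocyte and platelet markers, 9 of which passed the filter through liver alone, were higher in liver, with PPBP at a log2 fold change of 11.14, GP1BA at 9.32 and GP9 at 8.63, and the list summed to 783 to 1068 CPM in liver and 63.2 to 79.0 CPM in muscle. Of the 5 mast cell markers, 3 were in the tables and none passed the filter, with sums of 1.28 to 2.72 CPM in liver and 1.39 to 2.43 CPM in muscle, so mast cell markers were near 0 in both tissues. Of 10 macrophage markers of erythroblastic islands, 9 were higher in liver and 1 was not called, with CD5L at 10.47, HMOX1 at 3.62, VCAM1 at 3.21 and SIGLEC1 at 2.88. Of 9 neutrophil and lymphocyte markers, the 5 tested all passed the filter through liver alone, and they were higher in liver, with a list sum of 150.3 to 286 CPM in liver and 6.78 to 8.96 CPM in muscle. All 10 hepatocyte markers, 9 of them tested through liver alone, were higher in liver and all 8 muscle markers lower. The part of these other cells in the levels of the 7 genes was not tested.

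The genes with the pattern most like the mean of the 7 over the 12 libraries were mostly not on the red cell lists. Likeness was the root mean square difference between gene-centred log2 CPM values, over 12449 genes. The 10 nearest genes were CREB3L3, HSD17B2, FOXA2, ICAM4, LOC509506, GBP6, NEPN, ABCB4, ANKS4B and TRIM10, at differences of 0.29 to 0.40. Of these, 2 are on the red cell lists, ICAM4 and TRIM10. CREB3L3 and FOXA2 are transcription factors known from hepatocytes, and ABCB4 is a phospholipid exporter of bile. The tissue difference makes up most of this pattern, so it places together genes that are high in liver and near 0 in muscle. The 7 genes themselves lay at 0.74 for GATA1 to 1.28 for ALAS2 from their own mean.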

How the data were processed

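RNA-seq counts of liver and skeletal muscle from 2 Control-AI and 4 ART-Normal fetuses were used, 12 libraries in all. The authors deposited raw read counts per gene, without normalization, on gene spans of ARS-UCD1.2. Each listed length is the gene's whole span, so introns lie inside the counted regions. The submitters' processing notes name FastQC 0.11.7, HISAT2 2.1.0, Cufflinks, SAMtools, featureCounts and edgeR 3.24.3. How strand was handled in counting is not given in the sources used here. Kidney libraries were not analysed here, and 14 count columns, 7 per tissue, were not matched to a sample and not used. The authors also deposited tables of their own comparisons (log2 fold change, log2 CPM, likelihood ratio, p-value and FDR), which were not used.

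From the counts, TMM-scaled CPM, log2 fold changes and p-values (two-sided) came from edgeR 4.0.16 in R 4.3.3, with glmQLFit and glmQLFTest. Each standard error was worked out as the absolute log2 fold change divided by the square root of the F statistic of that test. A gene was tested if every library of a compared group reached 5 CPM. Adjustment was by Benjamini-Hochberg over all genes tested, with a threshold of 0.05. DESeq2 1.42.0 served as an alternative, and Matplotlib drew the plots. Scripts were tested on simulated data. The genes and lists were chosen with earlier results of these data known. From each list, up to 4 genes with the largest liver over muscle change past the threshold are named, except some that are not reported here, with genes called lower or not called added after their values were seen. Liver and muscle are paired by fetus, as the labels state. The main fits of liver against muscle, with and without globin scaling, and of the interaction did not model this pairing. A fetus block was an alternative, given below. Deviations from the group means were correlated between the tissues of a fetus, across genes, which are not independent replicates. This gave r = 0.36 for both controls and r = 0.21, 0.038, 0.078 and 0.31 for ART-Normal 1 to 4. The deviations of the controls mirror each other around their mean, so their r is the same by construction.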

Additional observations from a re-analysis of the deposited data

Results flagged for a closer look

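In 14 sets of 4 ART-Normal values (7 genes in 2 tissues), the gap of the highest or lowest sample to its neighbour was set against the whole range, and a share above the 95% critical value of Dixon's ratio was taken as far from the others. In liver, EPB42 was low in ART-Normal 2, with a gap share of 0.938. In muscle, SLC4A1 was high in ART-Normal 3 with 0.888, KLF1 was high in the same fetus with 0.863, and GATA1 was high in ART-Normal 4 with a share of 1, which stands for 1 count against 0, 0 and 0. Chance flags about 5% of such sets. ART-Normal 3 had 30 SLC4A1 counts and 13 KLF1 counts in muscle, more than any other ART-Normal muscle for both genes.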

How the results depend on the processing

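No member was called between conception groups in liver or muscle, or in the interaction, under any alternative, and without globin scaling each member tested was called higher in liver than in muscle under every alternative. Genes called in liver numbered 0, and 8 with library size alone, 56 with DESeq2, 89 with the likelihood ratio test, 2 with ART-Normal 1 to 3 and 0 to 830 when 1 fetus was left out, with 830 without Control-AI 4. In muscle the 1 gene became 106, 120 and 0 under DESeq2, the likelihood ratio test and ART-Normal 1 to 3, and 0 to 1327 with 1 fetus left out, with 1327 without Control-AI 4. Leaving out a control leaves 1 control, assumed to vary like the other group. The interaction gave 37 with DESeq2, 98 with the likelihood ratio test and 0 to 232 with 1 fetus left out. With at least 10 counts in every library, only ALAS2 and AHSP were tested and called in both liver to muscle comparisons, so 2 members were called. With HBM alone as scale, chosen after seeing the data, 2 were called, in the other direction. The sign turned in liver for ALAS2 (0.082) and GATA1 (0.012) with library size alone. With 1 fetus left out it turned for ALAS2 (-0.36 to 0.10, positive without Control-AI 2), for AHSP (-0.018 to 0.59, negative without Control-AI 4), in the interaction for SLC4A1 (-0.066 to 2.19, negative without Control-AI 2), and per HBM for ALAS2 (-3.77), AHSP (-3.42) and EPB42 (-0.43). The cause was not tested.

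With the fetus as a replicate block, 10558 genes and all 7 members were called between the tissues, 10690 and all 7 per globin, and 0 in the interaction. Between conception groups, fetuses share only a number (r of -0.064 in liver and -0.069 in muscle), and a replicate block on numbers 2 and 4 called 6 genes in liver and 93 in muscle, with no member among them. With 2 controls, 1 of which stands apart, small differences between conception groups were not detectable, and the muscle values of GATA1 and KLF1 rest on 6 and 20 counts.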
